A study of Rattus norvegicus with 16 samples.

Results

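The collagen genes of the rat kidney's outer medulla were examined, taken as all genes whose rat symbol has the form Col, a number, a and a number. Of 44 such genes in the RefSeq gene table of the GRCr8 assembly, 18 had a named probe on the array, 43 probes in all, among 15284 named genes. Of these, 17 were bright enough to be tested, among 11849 genes tested. They fall into 5 fibrillar collagens (Col1a1, Col1a2, Col3a1, Col5a1 and Col5a3), 3 basement membrane collagens (Col4a1, Col4a4 and Col18a1) and 9 others (Col2a1, Col6a2, Col7a1, Col8a1, Col9a1, Col9a2, Col11a2, Col14a1 and Col23a1). The fibrillar class was limited to types I, III and V, so Col2a1 and Col11a2, which also encode chains of fibrils, count among the others. Col13a1, also among the others, was not well above background on any of the 12 arrays of days 14 and 28 and was not tested. The remaining 26 genes, among them Col4a2, Col4a3, Col4a5, Col4a6, Col5a2, Col6a1, Col6a3 and Col15a1, are not analysed here.

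The animals were male Crl:CD Sprague-Dawley rats, 5 weeks old at the start. One group received 2-amino-4-nitrophenol (ANP), an aromatic amine used in hair dyes, at 750 mg/kg/day in corn oil by daily gavage, and the vehicle group received corn oil alone. The day 14 and day 28 groups have 3 arrays each, 1 for each of 3 separate animals. For days 1 and 7, RNA of 3 animals was mixed before it was hybridised to 1 array per group, so these days give values and no test. The design compares ANP with vehicle on each day, and the vehicle groups of day 14 and day 28 show how the levels differed between these ages of growing rats.

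Collagens are extracellular proteins whose chains wind around each other into a rope-like helix. Fibrillar collagens are made mostly by fibroblasts and related stromal cells and assemble into the cable-like fibrils of the interstitium, the space between tubules. Basement membrane collagens form the sheets under epithelial and endothelial cells. In the kidney, Col4a1 pairs with Col4a2 in nearly all basement membranes, whereas Col4a4 pairs with Col4a3 and Col4a5 in the mature filter membrane of the glomerulus and in some tubule segments. Collagen synthesis is generally high in growing tissue, and scarring of the kidney is marked by deposits of interstitial collagen.

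The sequences just before the start sites of 5 collagens are printed because these genes carry the results that follow: Col1a2, Col5a1 and Col7a1 were lower in older vehicle rats, Col4a4 was higher, and Col4a1 and Col4a4 were lower on every ANP array of day 28 than on its vehicle arrays. They are from RefSeq (GRCr8), 5′ to 3′ on the gene's own strand, and capitals mark matches to 3 motifs on either strand. These are the CCAAT box, whose letters become ATTGG when seen from the other strand, the GC box, whose letters GGGCGG become CCGCCC, and the TATA box, searched for as TATAAA, which becomes TTTATA.
Col1a2, chr4:33518307-33518556, + strand: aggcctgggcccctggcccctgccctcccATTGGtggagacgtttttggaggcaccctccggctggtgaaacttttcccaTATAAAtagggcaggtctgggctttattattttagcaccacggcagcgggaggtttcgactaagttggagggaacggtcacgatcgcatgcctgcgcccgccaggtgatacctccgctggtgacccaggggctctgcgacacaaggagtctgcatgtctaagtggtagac
Col5a1, chr3:31606630-31606879, + strand: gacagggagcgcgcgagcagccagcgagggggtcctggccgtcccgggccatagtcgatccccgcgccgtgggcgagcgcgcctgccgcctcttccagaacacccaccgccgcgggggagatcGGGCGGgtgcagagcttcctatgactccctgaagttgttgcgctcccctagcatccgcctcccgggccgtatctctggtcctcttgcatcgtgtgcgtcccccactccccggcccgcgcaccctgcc
Col7a1, chr8:118483114-118483363, + strand: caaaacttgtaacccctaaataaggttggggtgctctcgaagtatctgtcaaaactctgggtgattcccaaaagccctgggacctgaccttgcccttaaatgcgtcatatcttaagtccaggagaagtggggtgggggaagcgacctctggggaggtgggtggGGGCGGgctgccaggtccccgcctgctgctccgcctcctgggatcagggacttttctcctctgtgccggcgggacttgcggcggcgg
Col4a4, chr9:91323578-91323827, - strand: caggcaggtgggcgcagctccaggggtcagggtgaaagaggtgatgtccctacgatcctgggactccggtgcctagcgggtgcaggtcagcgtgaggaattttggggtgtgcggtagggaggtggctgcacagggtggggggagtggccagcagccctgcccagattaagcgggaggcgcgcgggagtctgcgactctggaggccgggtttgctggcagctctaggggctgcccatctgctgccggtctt
Col4a1, chr16:84885521-84885596, + strand: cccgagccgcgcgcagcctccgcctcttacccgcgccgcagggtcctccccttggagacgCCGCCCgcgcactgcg

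The first 4 windows are 250 bases long, and that of Col4a1 is the 76 bases that separate its start from the start of Col4a2, which runs the other way. Col1a2 held a CCAAT match on the reverse strand from 221 to 217 bases before the start and TATAAA from 170 to 165 bases before it. Col5a1 held GGGCGG from 127 to 122 bases and Col7a1 from 87 to 82 bases before the start, and Col4a1 held it on the reverse strand from 16 to 11 bases before the start. The Col4a4 window held none of the 3 motifs. Its start lies 412 bases from that of Col4a3. The motifs did not overlap each other in these windows. Of 33469 rat promoters of 250 bases, 34.0% held CCAAT, 30.5% GGGCGG and 12.9% TATAAA; among the 13 collagens with a named probe and a promoter entry, 3, 8 and 2 held them. In windows of 76 bases, 18.1% of all promoters held GGGCGG. A match is only a description of the letters.

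Levels below are log2 ratios of a probe's processed signal to the 75th percentile of its array, so 0 is the signal of a probe at that percentile, and levels of different genes cannot be compared. Each gene is represented by its brightest probe. A difference counts as called where limma's Benjamini-Hochberg adjusted p, over all genes tested, was under 0.05. Markers of the outer medulla (straight proximal tubule and thick ascending limb) were well above background in each group, and so were markers of glomeruli and of the convoluted proximal tubule, which lie in the cortex. The share of probes well above background was 64.75% to 69.6% per array. The 16 arrays lay on 4 slides: the day 28 ANP arrays had a slide and scan day of their own, so slide, scan day and treatment cannot be told apart there, and vehicle arrays of days 14 and 28 lay on different slides.

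Between day 14 and day 28 of vehicle dosing, 3 fibrillar collagens and Col7a1 fell by about 1 log2 unit, while Col4a4 rose by about as much. Of 17 collagens tested, 4 were called lower, against 4.17% of all genes, and 1 was called higher, against 7.01%. The fibrillar class had 3 of 5 members called lower and a median difference of -1.03, the basement membrane class 1 of 3 called higher and a median of -0.05, and the other collagens 1 of 9 called lower and a median of 0.01; the median of all genes was 0.01. The groups did not overlap for 9 of 17 collagens, 8 lower and 1 higher, against 34.7% of all genes.

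**Figure D1:**
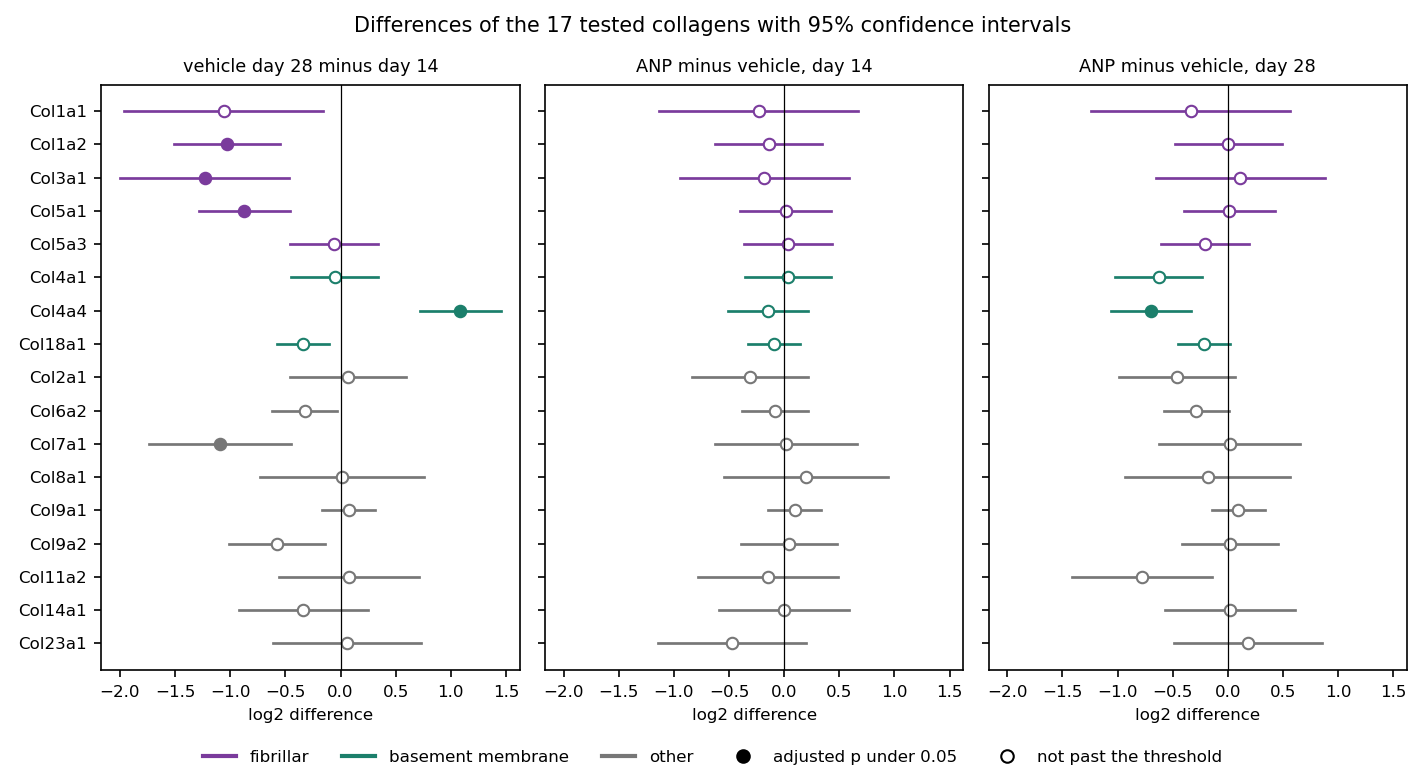
Log2 difference of each of the 17 tested collagens (points) with its 95% confidence interval (lines) between vehicle days 28 and 14, and between ANP and vehicle at days 14 and 28, coloured by class. Filled points passed the adjusted p of 0.05: 5 in the vehicle comparison, 0 at day 14 and 1, Col4a4, at day 28.

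Col1a2, which with Col1a1 encodes the chains of type I collagen, the main fibril of the interstitium, stood at 3.83, 3.77 and 4.26 on the vehicle arrays of day 14 and at 2.56, 3.07 and 3.15 on those of day 28. All day 28 values lay below all day 14 values. The means were 3.96 ± 0.27 and 2.93 ± 0.32 (SD, n = 3 each), and the difference was -1.03 ± 0.22 (SE), 2.04-fold lower (limma adjusted p = 0.0163). In this whole-tissue RNA, fewer cells that express a gene and less RNA of it per cell cannot be told apart. Col1a1 stood at 1.97, 1.87 and 2.26 at day 14 and at 0.26, 1.38 and 1.28 at day 28. The groups did not overlap, but the first day 28 array lay far below the other two, and the difference of -1.06 ± 0.41 did not pass (limma adjusted p = 0.127).

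Col3a1, the chain of type III collagen of fine reticular fibrils, stood at 2.59, 2.42 and 2.57 at day 14 and at 0.78, 1.46 and 1.65 at day 28. Every day 28 array lay below every day 14 array. The difference was -1.23 ± 0.34, 2.35-fold lower (limma adjusted p = 0.0454). Col5a1, a chain of the type V collagen that sets fibril thickness, stood at -0.37, -0.26 and 0.17 at day 14 and at -1.26, -1.07 and -0.74 at day 28. Again the groups did not overlap, with a difference of -0.87 ± 0.19, 1.83-fold lower (limma adjusted p = 0.0167). Its other probes did not pass over all probes, A_64_P009097 at -0.76 (limma adjusted p = 0.0568) and A_43_P13273 at -0.60 (limma adjusted p = 0.131). Col5a3, a further type V chain, differed by -0.06 ± 0.18, with a 95% interval of -0.46 to 0.34.

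The same levels in the ANP groups ran side by side with those of the vehicle. Col1a2 stood at 3.58, 4.20 and 3.67 with ANP at day 14 and at 3.14, 2.97 and 2.68 at day 28, and Col5a1 at -0.40, 0.15 and -0.17, then at -0.99, -0.93 and -1.12. One slide held the second and the third ANP array of day 14 beside all 3 vehicle arrays of day 28, and on it Col1a2 was at 4.20 and 3.67 against 2.56, 3.07 and 3.15. The arrays of the earlier day were the higher ones there, but they were also the ANP arrays. Day and treatment therefore cannot be told apart on that slide. The vehicle pools of days 1 and 7 were at 4.15 and 4.11 for Col1a2, within the range of day 14, and at 0.28 and 0.26 for Col5a1, just above it.

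**Figure D2:**
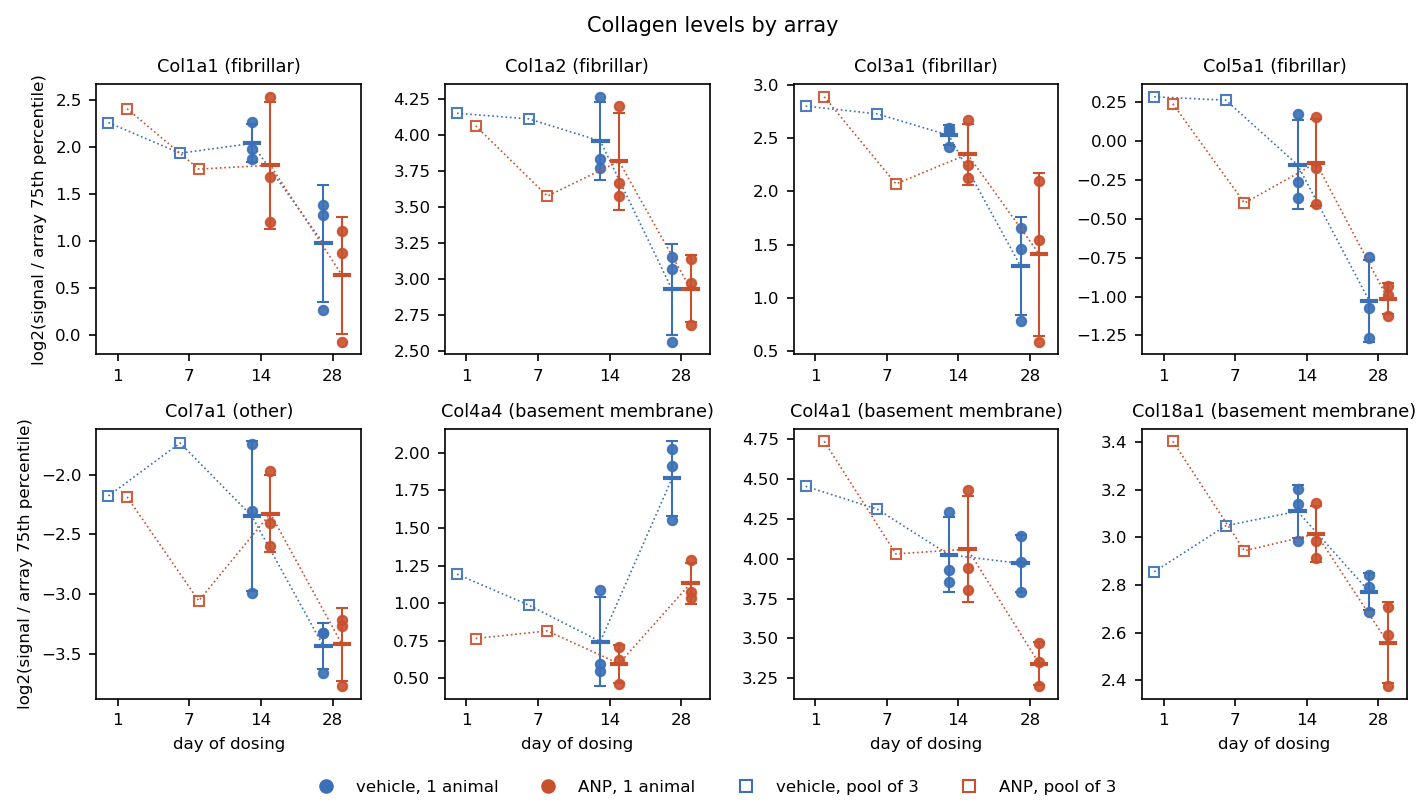
Log2 level of 8 collagens on each array by day of dosing (x axis), vehicle in blue and ANP in orange. Filled circles are single animals (3 per group at days 14 and 28) with mean and SD as bars, open squares are pools of 3 animals (1 per group at days 1 and 7), and dotted lines join the means. The means of Col1a1, Col1a2, Col3a1 and Col5a1 are lower at day 28 than at day 14 in both groups, whereas Col4a4 is higher at day 28, most of all in the vehicle arrays (1.55 to 2.03). The ANP groups of days 14 and 28 were not tested against each other.

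The calls of the lower collagens rested on few arrays. Without the third vehicle array of day 14, or without the first of day 28, Col4a4 alone passed (1 of 17). Without the second of day 28, 2 passed, and without the second of day 14, 3 passed. With slide as a fixed block no gene passed, and the 5 differences kept their direction (Col1a2 -1.39, Col3a1 -1.56, Col5a1 -1.27, Col7a1 -1.50 and Col4a4 1.25). A fit of those 2 vehicle groups alone left 3 calls, and Col5a1 (limma adjusted p = 0.0573) and Col7a1 (limma adjusted p = 0.0924) were not among them.

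Of cell markers, 0 of 11 fibroblast and myofibroblast markers were called lower between the vehicle days and 2 were called higher (Gsn and Pi16), with a median of -0.10. Below 0 were 6 of the 11 and above it 5, and 6 had an unadjusted p under 0.05 by limma, against 3106 of 11849 genes. Cdh11 fell without overlap, from -3.11 ± 0.22 to -3.96 ± 0.34 (SD, n = 3 each). The summed level of the 11 markers (linear, in units of the 75th percentile) ran from 33.2 to 38.1 at day 14 and from 28.9 to 33.5 at day 28. The fibroblast receptor gene Pdgfra was at -0.32 ± 0.10 (limma adjusted p = 0.0744). Fap, a marker of activated fibroblasts, was not above background in any group. A list of fat cell genes, which also holds the muscle actin gene Acta1, had 2 of 7 members called lower (Fabp4 and Pparg), and 7 of 7 below 0. Its summed levels were 3.51 to 5.36 at day 14 and 2.40 to 2.98 at day 28. The fat cell gene Adipoq was at 0.38 ± 0.28 and then at 0.18 ± 0.04 (SD, n = 3 each), with overlapping groups. Markers of the cortex went the other way in the same comparison, with 8 of 10 convoluted proximal tubule markers (median 2.32) and 5 of 10 glomerular markers (median 0.67) called higher and none lower, while 2 of 9 straight proximal tubule and 2 of 9 thick ascending limb markers were called lower (medians -0.18 and -0.31). The shares of all genes were 7.01% higher and 4.17% lower. The part of these markers in the fall of the fibrillar collagens was not tested.

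With ANP, no fibrillar collagen was called on either tested day, against 7.11% of all genes at day 28 and 0.481% at day 14, so a count of 0 of 5 does not set the class apart from other genes. The class median was 0.00 at day 28 and -0.14 at day 14, beside 0.02 and 0.01 over all genes, and 0 of 5 had an unadjusted p under 0.05 by limma on either day. Of all 11849 genes, 3122 had one at day 28 and 1587 at day 14. Col1a2 differed by 0.00 ± 0.22 at day 28 (95% interval -0.48 to 0.49), and Col5a1 by 0.01 ± 0.19 (-0.40 to 0.42). Dimmer probes lay lower, that of Col1a2 at -0.14 and those of Col5a1 at -0.44 and -0.12. None of these passed over all probes (limma adjusted p from 0.239 to 0.756). The mean of the probes gave -0.07 for Col1a2 and -0.18 for Col5a1. Col3a1, at 2.10, 1.54 and 0.58 with ANP at day 28, spread more widely than in its vehicle group, and its difference was 0.11 ± 0.34 (-0.65 to 0.88). It turned with single arrays, to -0.23 without the first ANP array and to 0.53 without the third. Col1a1, at 1.11, 0.87 and -0.07 with ANP at day 28, overlapped its vehicle group and differed by -0.34 ± 0.41 (-1.24 to 0.57). It too depended on single arrays, from -0.69 to 0.01 when each was left out, the latter without the third ANP array.

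The basement membrane collagens differed from each other. Between the vehicle days Col4a4 rose, Col4a1 stayed within its spread and Col18a1 was a little lower without passing. With ANP at day 28 Col4a4 fell, while Col4a1 and Col18a1 did not pass, at -0.63 and -0.21. Of 17 collagens, 1 was called lower at day 28, against 2.63% of all genes, and 0 were called higher, against 4.47%. The groups did not overlap for 3 collagens, Col4a1, Col4a4 and Col11a2, all lower, against 32.9% of all genes, so the share of collagens apart (17.6%) was below that of all genes.

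Col4a4, a chain of the mature glomerular membrane network, stood at 1.09, 0.55 and 0.60 on the vehicle arrays of day 14 and at 1.91, 2.03 and 1.55 on those of day 28. All day 28 arrays were above all day 14 arrays. The means were 0.74 ± 0.30 and 1.83 ± 0.25 (SD, n = 3 each), a difference of 1.09 ± 0.17, 2.12-fold higher (limma adjusted p = 0.0056). With ANP it stood at 0.71, 0.62 and 0.46 at day 14 and at 1.29, 1.07 and 1.04 at day 28. The day 28 ANP arrays thus lay below all 3 of their vehicle arrays, by -0.70 ± 0.17, 1.62-fold (limma adjusted p = 0.0344). This call was lost without the first or second vehicle array or the second or the third ANP array of day 28 (limma adjusted p from 0.0689 to 0.124), with no filter on dim probes (0.0503) and in a fit of the day 28 groups alone (0.058), at values from -0.60 to -0.70. The second Col4a4 probe gave 1.06 between the vehicle days and -0.73 at day 28, and both differences passed over all probes (limma adjusted p = 0.00895 and 0.0398). The 2 comparisons share the 3 vehicle arrays of day 28.

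Markers of the cortex, and some of the collecting duct, went in the direction of Col4a4 between the vehicle days and with ANP at day 28. The counts below stand against 7.01% of all genes called higher between the vehicle days and 2.63% called lower with ANP at day 28. Of 10 glomerular markers, 5 were called higher between vehicle days 14 and 28 (among them Wt1 at 2.08, Nphs1 at 2.00, Ptpro at 1.77 and Podxl at 0.70), with a median of 0.67. At day 28, 2 of 10 were called lower with ANP (Ptpro 1.99-fold and Podxl 1.70-fold lower), with a median of -0.68. Their summed level ran from 15.2 to 17.8 in vehicle arrays of day 14, 27.9 to 36.4 in vehicle arrays of day 28, 12.8 to 14.8 in ANP arrays of day 14 and 17.6 to 18.9 in ANP arrays of day 28. No glomerular marker was below background throughout a group. Of 10 markers of the convoluted proximal tubule, 8 were called higher between the vehicle days (median 2.32), and at day 28 all 10 were below 0 with ANP, with 2 called (Gc and Slc7a8, median -1.11). Their summed level was 220 to 501 in vehicle arrays of day 14, 697 to 841 in those of day 28, 205 to 303 in ANP arrays of day 14 and 476 to 583 in ANP arrays of day 28. The highest of these sums at vehicle day 14 was on the first array, which was also the highest of its group for Col4a4. The glomerular sum of that group was highest on the second array (17.8, against 17.5 on the first). By the mean log2 level of the glomerular markers, the first array was the highest (-0.48, against -0.58 on the second and -1.04 on the third). Among the ANP arrays of day 28, the first was highest for Col4a4 (1.29) and lowest for the glomerular sum (17.6). Of 9 collecting duct markers, 2 were called higher between the vehicle days (Hsd11b2 and Atp6v1g3, list median 0.15), and 3 were called lower with ANP at day 28 (Hsd11b2, Atp6v1g3 and Scnn1g, list median -0.38). Hsd11b2, an enzyme that inactivates glucocorticoids, was at 4.16 ± 0.10 in vehicle arrays of day 14, 5.19 ± 0.17 in those of day 28, 3.85 ± 0.14 in ANP arrays of day 14 and 4.13 ± 0.14 in ANP arrays of day 28 (SD, n = 3 each). The list's summed level was 147 to 203 in vehicle arrays of day 14, 193 to 216 in those of day 28, 113 to 144 in ANP arrays of day 14 and 114 to 202 in ANP arrays of day 28, so the vehicle groups of the 2 days overlapped, and so did the groups of day 28. With ANP at day 14, 9 of 10 glomerular markers (median -0.30) and 10 of 10 convoluted proximal tubule markers (median -0.82) were below 0. None of them were called, against 0.481% of all genes. Col4a4 differed by -0.15 ± 0.17 on that day, with overlapping groups. The part of the cortex and collecting duct markers in the Col4a4 differences was not tested.

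**Figure D3:**
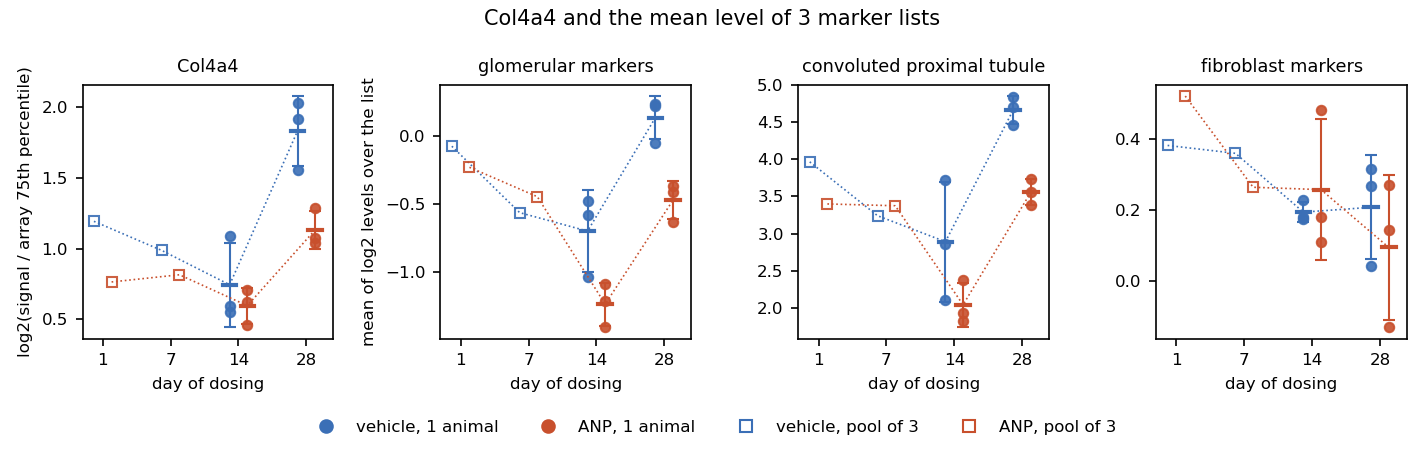
Log2 level of Col4a4 and the mean log2 level over 10 glomerular, 10 convoluted proximal tubule and 11 fibroblast markers on each array, by day of dosing, with vehicle in blue and ANP in orange; circles are single animals with mean and SD, squares pools of 3. Col4a4 and both cortex lists are highest in the vehicle arrays of day 28, while the fibroblast list stays between -0.13 and 0.52.

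Col4a1, a chain of the common basement membrane network, stood at 3.85, 3.93 and 4.29 on vehicle arrays of day 14 and at 3.79, 4.15 and 3.98 on those of day 28, a difference of -0.05 ± 0.18 (95% interval -0.45 to 0.34). With ANP it stood at 3.80, 4.43 and 3.94 at day 14 and at 3.20, 3.47 and 3.35 at day 28. All day 28 ANP arrays lay below all vehicle arrays, by -0.63 ± 0.18, 1.55-fold, just short of the threshold (limma adjusted p = 0.0586). It passed in 3 alternative fits (limma adjusted p = 0.0215 to 0.0452) and in no fit that left out an array (0.0888 to 0.185).

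The 4 probes of Col4a1 did not give the same answer at day 28. Probe A_44_P1021644 was at 2.48, 2.75 and 2.63 with vehicle and at 1.45, 2.31 and 2.01 with ANP (-0.70; limma adjusted p = 0.0952 over all probes). Probe A_64_P293606 was at -1.34, -1.09 and -1.27 with vehicle and at -2.02, -1.76 and -1.95 with ANP (-0.68; limma adjusted p = 0.0333). Probe A_44_P1070510 was at 3.45, 3.14 and 2.78 with vehicle and at 3.45, 3.58 and 3.41 with ANP (0.35; limma adjusted p = 0.257). So 3 probes were lower on every ANP array, and 1 was not. The mean of the probes gave -0.41 (limma adjusted p = 0.0808). The deposited files hold no probe sequence, so the transcripts these probes read were not compared.

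**Figure D4:**
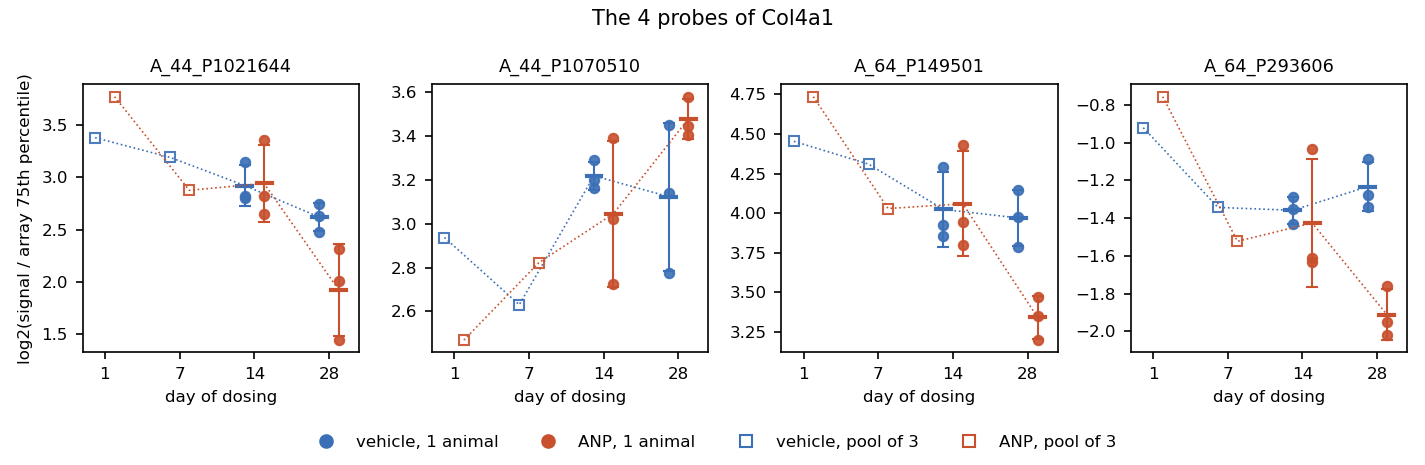
Log2 level of each of the 4 Col4a1 probes by array and day of dosing, with vehicle in blue and ANP in orange; circles are single animals with mean and SD, squares pools of 3 animals. A_44_P1021644, A_64_P149501 (the probe used) and A_64_P293606 are lower with ANP at day 28, and A_44_P1070510 is not.

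Col18a1, a proteoglycan collagen of basement membranes and the parent of endostatin, stood at 2.99, 3.14 and 3.20 on vehicle arrays of day 14 and at 2.69, 2.79 and 2.84 on those of day 28. These groups were apart, and the difference of -0.34 ± 0.11 did not pass (limma adjusted p = 0.0688). With ANP it stood at 2.92, 3.15 and 2.99 at day 14 and at 2.38, 2.59 and 2.71 at day 28. The day 28 groups overlapped and differed by -0.21 ± 0.11 (95% interval -0.45 to 0.02).

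At day 14 no collagen was called, against 0.363% of all genes higher and 0.118% lower. None passed an unadjusted p of 0.05 by limma, against 1587 of 11849 genes. The groups overlapped for all 17, against 18.1% of genes whose groups did not. The class medians were -0.14 for fibrillar, -0.09 for basement membrane and 0.00 for other collagens. Among collagens well above background on all 6 arrays, Col2a1 was at -0.31 ± 0.24. Col23a1 was well above background on 1 of 3 arrays in each day 14 group, so no difference is read from it. Within the slide that held the 3 vehicle arrays and the first ANP array, Col1a1 was at -0.83, Col1a2 at -0.38, Col5a1 at -0.25 and Col4a1 at -0.22, that ANP array being the lowest of the 3 for each of these genes.

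The test of whether the treatment difference itself differed between days 14 and 28 called no gene (0.0% of 11849 by limma, with 1098 at an unadjusted p under 0.05). Among collagens, 2 of 17 had an unadjusted p under 0.05. Col4a1 differed by -0.66 ± 0.25 (limma adjusted p = 0.492) and Col4a4 by -0.55 ± 0.23 (limma adjusted p = 0.509). The lower level of Col4a4 at day 28 was therefore not shown to differ from its difference at day 14, which was -0.15 ± 0.17.

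Among the other collagens, Col7a1, which forms the anchoring fibrils that tie epithelium to stroma, was the one called. It stood at -2.99, -2.31 and -1.74 on vehicle arrays of day 14 and at -3.66, -3.32 and -3.33 on those of day 28. All day 28 arrays were the lower ones, with a difference of -1.09 ± 0.29, 2.13-fold lower (limma adjusted p = 0.0371). The call was kept without the first array of day 14 and lost without any other single vehicle array (limma adjusted p up to 0.127), and its second probe was at -0.75 (limma adjusted p = 0.206 over all probes). With ANP it stood at -2.60, -1.97 and -2.41 at day 14 and at -3.77, -3.22 and -3.27 at day 28, close to its vehicle groups on both days (0.02 ± 0.29 on each).

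Col9a2, a chain of the fibril-associated type IX collagen, stood at -1.95, -1.81 and -1.49 and then at -2.66, -2.32 and -2.00 between the vehicle days. The groups did not overlap, but the difference of -0.58 ± 0.20 did not pass (limma adjusted p = 0.0887), while its second probe did, at -0.87 (limma adjusted p = 0.0242 over all probes). Col6a2, a chain of the beaded filaments near cell surfaces, stood at 1.76, 1.77 and 2.06 and then at 1.40, 1.66 and 1.55, also without overlap (-0.33 ± 0.13; limma adjusted p = 0.154). Col9a1 depended on its probe. The brightest of its 4 probes was level between the vehicle days (0.08 ± 0.11), whereas A_64_P074649 stood at -4.77, -5.50 and -5.17 and then at -4.16, -4.15 and -3.60, a difference of 1.18 (limma adjusted p = 0.00864 over all probes). A further probe, A_43_P11136, stood at -6.62, -6.23 and -7.69 on the vehicle arrays of day 14. These values are as low as those of Col13a1 (-6.12, -6.83 and -7.66), which was not well above background there. No difference is therefore read from that probe.

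Col11a2, a minor fibril chain best known from cartilage, was the only other collagen whose groups were apart at day 28. It stood at -0.96, -1.61 and -0.97 on vehicle arrays and at -2.46, -1.62 and -1.79 on ANP arrays. The highest ANP array and the lowest vehicle array nearly touched, and the difference of -0.78 ± 0.29 did not pass (limma adjusted p = 0.121). Its second probe was further apart, at -4.07, -3.83 and -3.66 with vehicle and at -4.53, -4.55 and -4.42 with ANP. That difference of -0.64 did not pass either (limma adjusted p = 0.0773 over all probes). The remaining collagens (Col2a1, Col8a1, Col14a1 and Col23a1) had overlapping groups in all 3 comparisons, with differences between -0.47 and 0.20. Col23a1, a membrane-bound collagen, was well above background on 1 of 3 arrays in 3 of the 4 groups and on all 3 in the day 28 ANP group, so most of its values are near the background.

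In the pools of day 1, no collagen differed by 2-fold or more between ANP and vehicle (0 of 18), against 4.82% of all genes higher and 4.96% lower. Col18a1 was at 3.40 with ANP and 2.86 with vehicle, a log2 ratio of 0.55, Col23a1 was at a ratio of 0.50, Col8a1, a collagen of vessel walls, at 0.44 and Col4a1 at 0.28. On the lower side were Col4a4 at -0.43, Col11a2 at -0.37, Col9a2 at -0.24 and Col14a1, which coats fibrils, at -0.24. The fibrillar collagens lay between -0.09 and 0.15. These are values of the brightest probes. Among dimmer probes that passed the filter, A_44_P197290 of Col5a3 was at 1.51 and A_43_P11136 of Col9a1 at 1.68, both past 2-fold. Fibroblast markers had summed levels of 33.3 with ANP and 32.4 with vehicle.

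In the pools of day 7, 15 of 18 collagens were below 0: all 5 fibrillar, all 3 basement membrane and 7 of 10 other collagens. Lower by 2-fold or more were Col7a1 (-1.74 with vehicle, -3.06 with ANP), Col9a2 (-1.06 and -2.37) and Col13a1, which was above background on 1 of the 2 arrays, and none were higher, against 2.53% of all genes lower and 2.12% higher. The medians were -0.54 for fibrillar, -0.17 for basement membrane and -0.64 for other collagens, beside 0.04 over all genes. Among fibrillar collagens, Col5a1 was at -0.66, Col3a1 at -0.66, Col1a2 at -0.54 and Col1a1 at -0.17. Col11a2 was at -0.84, Col8a1 at 0.20, Col9a1 at 0.10 and Col14a1 at 0.07. Dimmer probes of 2 of these genes lay further from 0, A_64_P106598 of Col11a2 at -1.74 and A_44_P311515 of Col9a1 at 1.27. Fibroblast markers had summed levels of 31.6 with ANP and 36.0 with vehicle, and a median ratio of -0.01. Each value compares 1 array with 1 array and carries no replicate check.

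Genes that act on collagen were followed in 7 lists, whose counts between the vehicle days stand against 4.17% of all genes called lower and 7.01% called higher. In this comparison 6 of 21 genes of the interstitial matrix other than collagen were called lower and none higher, with a median of -0.30. Those named are the tenascin gene Tnc at -2.49 ± 0.40, Thbs2 at -1.17 ± 0.19, fibronectin (Fn1) at -1.12 ± 0.28 and fibrillin (Fbn1) at -1.05 ± 0.25 (limma adjusted p from 0.0061 to 0.0302). Sparc, a collagen-binding protein gene, was at -0.11 ± 0.16. Among genes that cleave procollagen and cross-link fibrils, 1 of 7 was called lower, the lysyl oxidase Loxl2 at -1.10 ± 0.25 (limma adjusted p = 0.0219). Of 17 genes for folding, modification and secretion none were called, with 4 at an unadjusted p under 0.05 by limma, against 3106 of 11849 genes. Their panel members were Serpinh1, the collagen chaperone, at 0.06 ± 0.15, P4ha1, a prolyl hydroxylase, at -0.11 ± 0.12 and Plod2, a lysyl hydroxylase, at -0.68 ± 0.28 (limma adjusted p = 0.146).

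Among 14 genes of collagen degradation and its inhibitors, 3 were called higher and 1 lower between the vehicle days, against 7.01% and 4.17% of all genes. The gelatinase Mmp9 was at 1.97 ± 0.56, the inhibitor Timp4 at 1.39 ± 0.26 and the plasminogen activator Plat at 0.74 ± 0.09, while Mmp2 was at -0.94 ± 0.24 (limma adjusted p from 0.00294 to 0.0493), and Timp1 was at -0.14 ± 0.23. Of 6 collagen receptors, 1 was called higher, Adgrg1, at 0.59 ± 0.11 (limma adjusted p = 0.0112). Of 18 TGF-beta signal genes, 1 was called lower, a share (5.56%) near that of all genes: the latent TGF-beta binding protein gene Ltbp1, at -0.69 ± 0.14 (limma adjusted p = 0.0143), and Tgfb1 was at -0.08 ± 0.19. Of 12 basement membrane genes other than collagen, 2 were called lower and 1 higher: Smoc2 at -2.35 ± 0.32, Nid2 at -0.55 ± 0.15 and Tinag at 0.64 ± 0.17 (limma adjusted p from 0.00374 to 0.0461).

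**Figure D5:**
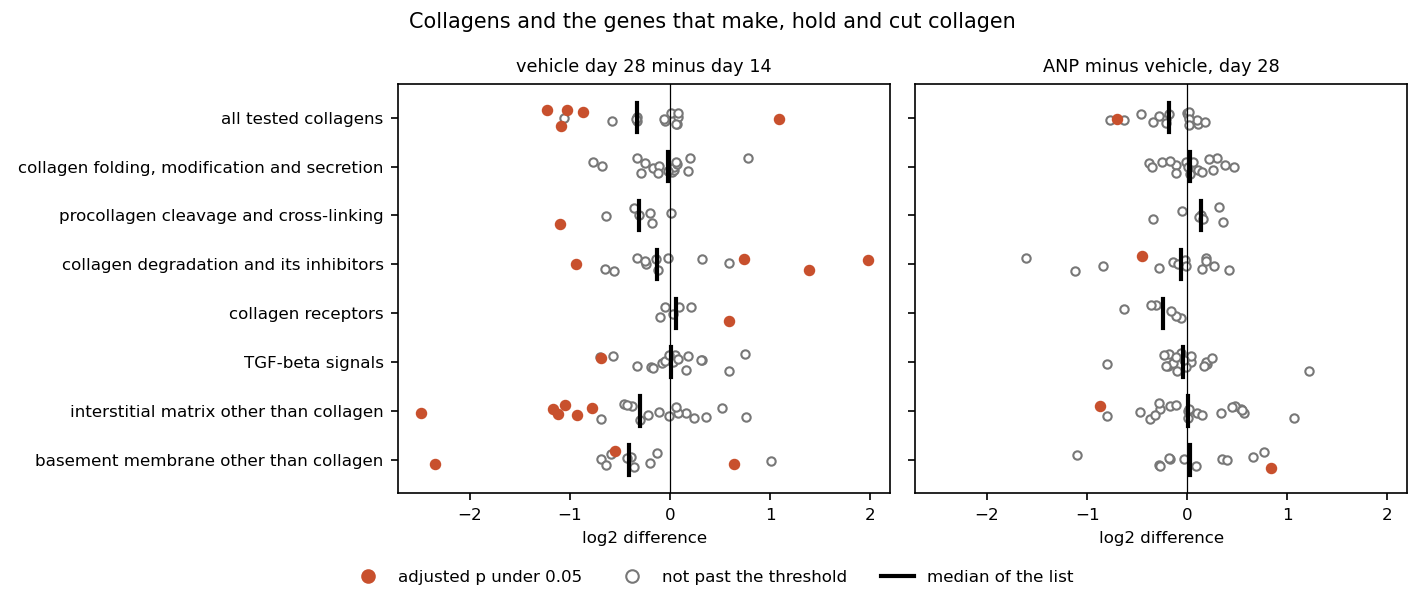
Log2 differences of single genes (points) for the 17 collagens and 7 lists of genes that act on collagen or share its matrix, between vehicle days 28 and 14 and between ANP and vehicle at day 28; filled points passed the adjusted p of 0.05 and black bars are list medians. In the vehicle comparison the called points of the interstitial matrix all lie below 0, and at day 28 few points of any list are filled.

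With ANP these lists held 3 calls at day 28, when 2.63% of all genes were called lower and 4.47% higher, and none at day 14, when 0.481% were called, and few calls in lists of this size are no result about them. At day 28, Plat was lower at -0.45 ± 0.09 (limma adjusted p = 0.0229), Thbs1, a matrix protein that activates TGF-beta, was lower at -0.87 ± 0.16 (limma adjusted p = 0.0137), and the laminin chain Lamb3 was higher at 0.84 ± 0.22 (limma adjusted p = 0.0473). No other member of the 7 lists was called at day 28, and 0 were called at day 14. On day 14, 0 to 4 members of a list had an unadjusted p under 0.05 by limma, against 1587 of 11849 genes. Serpinh1 was at 0.06 ± 0.15, Tgfb1 at -0.21 ± 0.19, Timp1 at 0.19 ± 0.23, Fn1 at 0.33 ± 0.28 and P4ha1 at -0.38 ± 0.12 (limma adjusted p = 0.0832) at day 28. The contractile gene Acta2, a myofibroblast marker, was at -0.13 ± 0.15, and 1 of 11 fibroblast markers, Gsn, was called lower (-0.53 ± 0.13). Lox and Nid1 are not analysed here.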

How the data were processed

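Total RNA of 16 samples was hybridised to one-colour rat Agilent arrays. The submitters' processing notes name Agilent Feature Extraction 10.7, whose deposited output gives each spot's processed signal intensity, median signal and local background, together with other marks for outlier, saturated and well-above-background spots, per the file headers. A second file of the authors holds a ratio of signal to the 75th percentile (linear, not centred by gene, log2 r against the scanner values of 0.999995 or more, column medians 0.099 to 0.108).

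From the deposited intensity, log2 values minus each array's 75th percentile over 61657 probes without controls were computed. No outlier mark fell on a collagen probe. Probes (27460) were named by RefSeq accession through the GRCr8 table, which matched 93.9% of NM and 1.9% of XM accessions, so probes on XM accessions are mostly unnamed. Each gene took its brightest probe by mean over 12 arrays, and was tested where every array of some group had it well above background. Differences were fitted with limma 3.58.1 (lmFit, eBayes, R 4.3.3) on the 12 arrays of days 14 and 28, and adjusted by Benjamini-Hochberg over 11849 genes. Folds are powers of 2 of the log2 differences. The method was tested on simulated data. It recovered 18.5% to 26.0% of added log2 differences of 0.5 and 74.5% to 77.5% of those of 1.0. Of its calls, 2.61% to 13.3% were false. The number of arrays limits the precision.

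Values on every array are given for collagens past the threshold and for a panel (Col1a1, Col3a1, Col4a1, Col18a1 and others); for Col2a1, Col6a2, Col9a1, Col9a2 and Col11a2 values were chosen after they were seen, as were the motifs and the promoters. In the pools, the 4 largest ratios of each direction above background on both arrays and any ratio of at least 2-fold are named. From each list, up to 4 called members and a panel are named. The members and lists were chosen with earlier results of these data known. Alternatives were other scalings, filters, probe rules, slide and replicate blocks, and fits without single arrays. No protein sequence was used here.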

Additional observations from a re-analysis of the deposited data

How the results depend on the processing

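With 3 animals per group, the counts of called collagens moved with small choices. The vehicle count of 5 became 3 with no filter on dim probes and 3 with the compared groups alone, 0 with slide as a fixed block (where no gene passed), and 1 to 5 when single arrays were left out; the other alternatives gave 4 to 7. The day 28 count of 1 became 0 with no filter on dim probes and with the compared groups alone, 2 with slide as a random block (correlation -0.09) and 2 with trend and robust eBayes, and 0 to 1 when single arrays were left out. Replicate numbers did not pair the samples (correlations of deviations from -0.12 to 0.15); with a replicate block 2 collagens were called at day 28 and 6 between the vehicle days, 4 of them shared with the 5. The count of 0 at day 14 and that for the difference between days held under every alternative run. The pools gave 2 to 3 collagens past 2-fold. Over 608 alternative values of single collagens, 0 called differences changed sign; 64 signs changed among uncalled ones. Slide as a fixed block for day 28 and for the difference between days could not be fitted, and the compared groups alone are the same fit for the latter. The normexp alternative used the median spot signal. Signals near the background, as of Col23a1 and Col13a1, limit what could be seen.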
